A study of Homo sapiens with 6 samples.

Results

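The ETS transcription factors described here are 10 of the 27968 genes in the deposited gene tables: ERG, FLI1, ETS1, ETS2, ETV1, ETV4, ETV5, ETV6, ELF3 and GABPA. They were taken by gene symbol, and 39 of the 70006 deposited RefSeq isoforms belong to them. The members were chosen by log2 fold changes of this same comparison, in which ERG is among the lowest of all genes, together with their place in the family. Differences of the members are therefore given as descriptions. Where a member or its isoform passed in the fit over all genes or isoforms, this is stated but not read as a test of the member. The other 18 genes of the human ETS family in the tables serve for comparison.

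H23 is a human lung adenocarcinoma cell line. Its cells, grown in serum-containing medium, were transfected by lipofection (RNAiMAX) with a control siRNA or with an siRNA specific for HOTAIR-N, named for the non-coding RNA HOTAIR. Each group holds 3 independent transfections, all with RNA taken at 48 h, and the sources used here give neither the siRNA sequences nor an untransfected group. Total RNA depleted of ribosomal RNA was sequenced, so each library is a bulk average in which a lower level in every cell and fewer cells with the RNA cannot be told apart.

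ETS factors share a winged helix-turn-helix domain that binds DNA around the core GGAA. What separates them is mostly outside that domain: ETS1, ETS2 and the PEA3 group (ETV1, ETV4, ETV5) are activators that ERK phosphorylation strengthens, ETV6 is a repressor that polymerises, and GABPA acts with a separate beta subunit. In tumours the family is known from ERG, ETV1 and ETV4 fusions in prostate cancer and from the FLI1 fusion of Ewing sarcoma.

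The 6 libraries held 32715361 to 36578681 expected counts, and the median correlation of a library with its own group was at least 0.994 against at most 0.977 with the other group. Replicates differed by more than sampling noise, at a chi-square per degree of freedom of 2.05 to 14.0 for pairs of libraries, highest for control replicate 1 against the others. HOTAIR had 169, 148 and 202 expected counts with control siRNA and 88, 74 and 82 with HOTAIR-N siRNA. Its log2 fold change was -1.04 ± 0.14 (SE; edgeR quasi-likelihood adjusted p = 1.32e-05), with an exact two-sided permutation p of 0.1, the smallest that 3 against 3 libraries allow. As to the labelled cell type, all 6 epithelial markers reached 1 TPM in some library, led by KRT8 and KRT18, with a summed level of 3716 to 4423 TPM with control siRNA and 2922 to 3292 TPM with HOTAIR-N siRNA. Of these, KRT18 fell by 0.71, CDH1 and KRT7 rose by 1.07 and 1.05, and KRT8, EPCAM and KRT19 did not pass. Of 6 lung adenocarcinoma markers, NAPSA, SFTPB, SFTPC and SFTA3 stayed under 1 TPM in every library, while MUC1 had 14.4 to 17.6 TPM and NKX2-1 rose by 1.02 (edgeR adjusted p = 1.96e-04), from a mean of 1.26 to 2.49 TPM. The 6-gene sum was 17.3 to 19.6 TPM with control siRNA and 17.5 to 18.8 TPM with HOTAIR-N siRNA. All 6 endothelial and all 6 blood cell markers, from cell types rich in ERG and FLI1, were under 1 TPM throughout. The endothelial sum was 0.25 to 0.49 TPM with control siRNA and 0.40 to 0.72 TPM with HOTAIR-N siRNA, and the blood sum 0.21 to 0.24 and 0.21 to 0.35 TPM with CD3E at 0. Of 6 fibroblast markers 4 were under 1 TPM, with a sum of 12.7 to 13.8 TPM and 8.39 to 9.95 TPM that was mostly ACTA2. The fibroblast markers above 1 TPM went opposite ways. ACTA2 fell by 0.81 and LUM rose by 0.96 in log2 units (edgeR adjusted p = 8.99e-06 and 6.63e-05).

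Among the members, ERG lost most of its RNA, ETV5, ETV1 and GABPA were lower by smaller amounts, and ETV4 and ETS2 were higher. ETS1, the second most abundant member, differed little, and ETV6 was slightly lower. FLI1 and ELF3 were close to absent in both groups. In the fit over all genes 9 of the 10 members could be tested and 2 passed as higher and 4 as lower, beside 28.7% of all 15072 tested genes passing as higher and 28.8% as lower. The groups of 3 libraries did not overlap for 7 of the 9, beside 62.9% of all tested genes. Since this contrast chose the members, nothing is read from these shares.

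**Figure D1:**
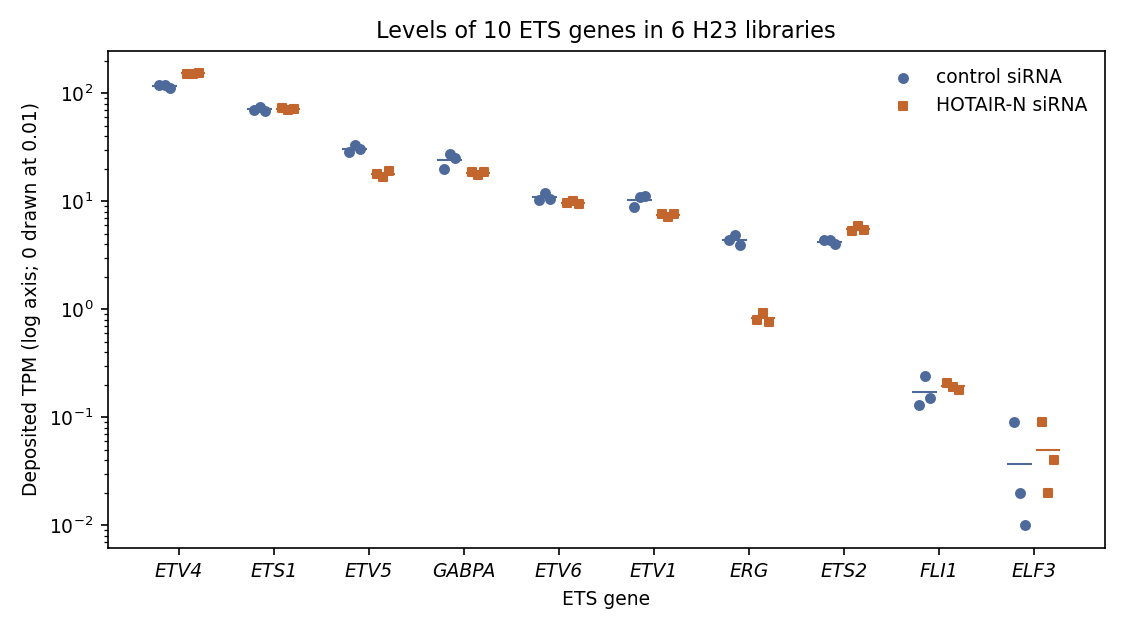
Deposited TPM (log axis) of the 10 ETS genes in each of the 3 control siRNA and 3 HOTAIR-N siRNA libraries, ordered by control level, with short lines at group means. ERG shows the widest gap between the groups, from a mean of 4.42 to 0.83 TPM, while the points of ETS1 overlap.

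On the length-adjusted TPM scale, ETV4 stood first with control siRNA at 116.9 ± 4.79 TPM (SD, n = 3, as for all group values here) and ETS1 next at 71.2 ± 3.31 TPM. ETV5 followed at 30.8 ± 2.33 TPM and GABPA at 24.2 ± 3.87 TPM, without overlap of their libraries. ETV6 at 10.9 ± 0.89 TPM and ETV1 at 10.4 ± 1.38 TPM did not differ beyond their spread, nor did ERG at 4.42 ± 0.48 TPM and ETS2 at 4.24 ± 0.21 TPM. FLI1 at 0.17 ± 0.06 TPM and ELF3 at 0.04 ± 0.05 TPM came last. With HOTAIR-N siRNA the order differed at 2 places. GABPA, at 18.3 ± 0.61 TPM, and ETV5, at 17.9 ± 1.06 TPM, traded places and overlapped. ETS2, at 5.57 ± 0.35 TPM, stood above ERG, at 0.83 ± 0.09 TPM. ETV1, at 7.47 ± 0.32 TPM, now lay below every library of ETV6, at 9.71 ± 0.35 TPM.

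ERG and FLI1 form one subfamily, known for driving endothelial and blood cell genes. ERG had 326, 368 and 333 expected counts with control siRNA and 55, 54 and 63 with HOTAIR-N siRNA. All HOTAIR-N siRNA libraries were thus far below all control libraries, with little spread within either group. In CPM (counts scaled to library size) the mean went from 9.73 ± 0.72 to 1.68 ± 0.09, a log2 fold change of -2.53 ± 0.11 (SE). That places ERG 29th of all tested genes from the lowest log2 fold change. FLI1 had 9, 16 and 11 counts with control siRNA and 14, 13 and 11 with HOTAIR-N siRNA. These overlap, and at so few counts the 95% interval of its log2 fold change ran from -0.58 to 0.83.

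The genes whose pattern over the 6 libraries lay nearest to ERG, by Euclidean distance between centred log2 CPM profiles, were TSPAN2, NT5DC1 and PPIB. TSPAN2, a tetraspanin, lay at a distance of 0.21 with 79, 81 and 86 counts against 12, 11 and 15. NT5DC1, a putative nucleotidase, lay at 0.23 and PPIB, the cyclophilin of the endoplasmic reticulum, at 0.32. Their log2 fold changes were -2.64 ± 0.20, -2.38 ± 0.08 and -2.48 ± 0.06 (SE), so the likeness is mainly that of the size of the difference between the groups.

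ETS1 and ETS2 are close relatives that carry a Pointed domain and answer to RAS and ERK signalling. ETS1 had 6521, 6641 and 6563 counts with control siRNA and 6577, 6439 and 6835 with HOTAIR-N siRNA. The groups overlapped, with a log2 fold change of 0.05 ± 0.05 (SE) and a 95% interval from -0.06 to 0.16. ETS2, far scarcer, had 288, 275 and 272 counts with control siRNA and 337, 389 and 372 with HOTAIR-N siRNA. Every HOTAIR-N siRNA library was above every control, and the log2 fold change was 0.44 ± 0.09 (SE).

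The PEA3 group showed both directions. ETV4 had 4342, 4120 and 4129 counts with control siRNA and 5307, 5516 and 5769 with HOTAIR-N siRNA. The HOTAIR-N siRNA libraries lay close together, at 162 ± 0.26 CPM against 119.2 ± 5.81 CPM, a log2 fold change of 0.44 ± 0.05 (SE). ETV5 had 2071, 2290 and 2263 counts with control siRNA and 1248, 1204 and 1413 with HOTAIR-N siRNA. It was lower in all 3, by a log2 fold change of -0.73 ± 0.07 (SE). ETV1 had 1061, 1267 and 1406 counts with control siRNA and 897, 847 and 949 with HOTAIR-N siRNA. It too was lower without overlap, with control replicate 1 the lowest control, and its log2 fold change was -0.42 ± 0.08 (SE), or -0.51 without that library. ETV4 is the most abundant of the 3, and their summed level went from 158.0 ± 5.51 to 178.5 ± 1.66 TPM. The share of ETV4 in that sum went from 73.9 ± 1.91% to 85.8 ± 0.62%, that of ETV5 from 19.5 ± 1.08% to 10.1 ± 0.50% and that of ETV1 from 6.58 ± 0.91% to 4.19 ± 0.15%.

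ETV6, the repressor known from leukaemia fusions, had 1096, 1212 and 1155 counts with control siRNA and 990, 1062 and 1033 with HOTAIR-N siRNA. Scaled to library size the groups just failed to overlap, at 32.8 ± 1.70 against 30.1 ± 1.12 CPM, and the log2 fold change of -0.12 ± 0.07 (SE) did not pass. ELF3, an epithelial ETS factor, had 5, 1 and 0 counts with control siRNA and 5, 1 and 2 with HOTAIR-N siRNA, too few for the test. GABPA, the DNA-binding subunit of the GA-binding protein that serves nuclear genes of mitochondria, had 1723, 2278 and 2225 counts with control siRNA and 1555, 1491 and 1661 with HOTAIR-N siRNA. These are rounded estimates, since part of its reads were divided between genes. Control replicate 1 stood between the other controls and the HOTAIR-N siRNA libraries. The log2 fold change of GABPA was -0.36 ± 0.09 (SE), and -0.46 without control replicate 1.

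Summed over 28 genes, the ETS family had 505.6 ± 3.58 TPM with HOTAIR-N siRNA against 572.8 ± 27.2 TPM with control siRNA, without overlap. The largest loss within that sum was that of ELK3, from a mean of 87.2 to 39.8 TPM. The 10 members alone summed to 273.2 ± 12.7 TPM in the controls and 284.8 ± 2.51 TPM with HOTAIR-N siRNA, which overlap. Their share of the family, whose total includes ELK3, went from 47.7 ± 0.38% to 56.3 ± 0.68%. Of the other 18 genes, 12 could be tested. Of these 5 fell, 1 rose and 6 did not pass, beside 28.8% lower and 28.7% higher over all tested genes, and their median log2 fold change was -0.13 beside 0.0061 over all tested genes.

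ELK3, a ternary complex factor that represses with SRF until ERK phosphorylates it, fell most of these. It had 6068, 6638 and 6545 counts with control siRNA and 2792, 2896 and 3102 with HOTAIR-N siRNA, a log2 fold change of -1.09 ± 0.05 (SE; edgeR adjusted p = 5.71e-10). In TPM it went from 87.2 ± 6.19 to 39.8 ± 0.84, the largest loss of any family gene on that scale. The other ternary complex factors fell less, in log2 units ELK4 by 0.30 and ELK1 by 0.21 (edgeR adjusted p = 0.00466 and 0.00645). The repressor ETV3 fell by 0.37 and ELF1, a factor of blood and epithelial cells, by 0.24 (edgeR adjusted p = 9.38e-05 and 0.00656). ERF, ELF2 and ELF4 had log2 fold changes of -0.10, 0.15 and -0.15 and did not pass. ETV7 rose by 0.66 ± 0.24 (SE; edgeR adjusted p = 0.0284) on 18 to 44 counts. Its call did not hold with DESeq2 (adjusted p = 0.0854), without control replicate 1 (0.106), or without HOTAIR-N siRNA replicate 1 (0.116) or 2 (0.0686). FEV, ETV2 and EHF did not pass on fewer than 25 counts in each library, and ETV3L, ELF5, SPI1, SPIB, SPIC and SPDEF were too low to test.

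**Figure D2:**
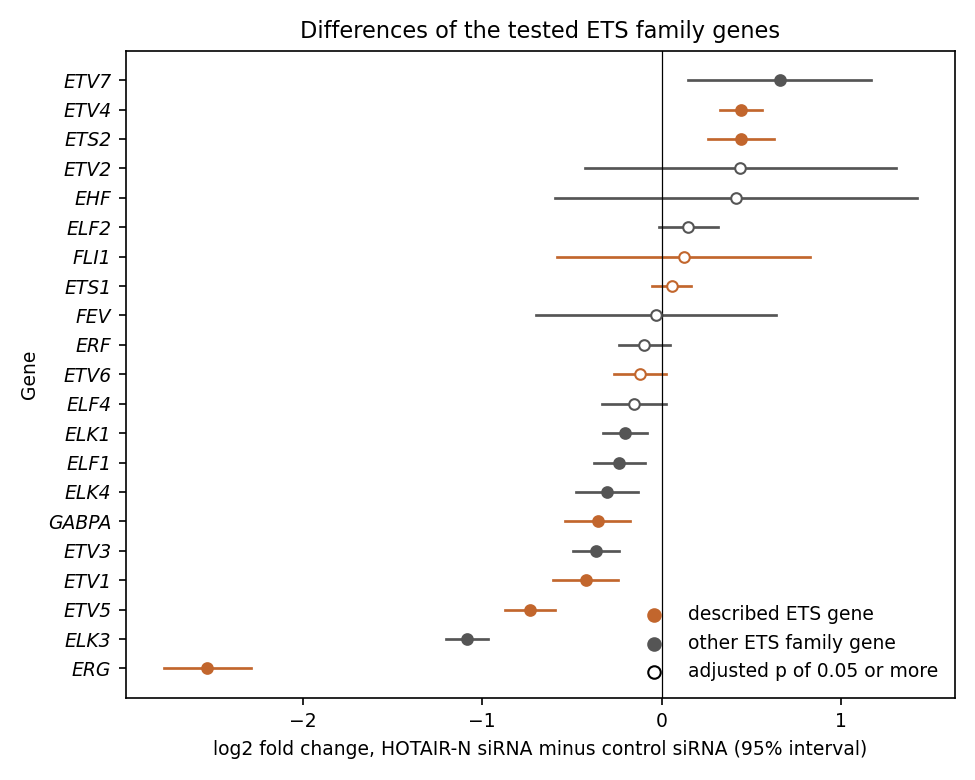
Log2 fold changes (HOTAIR-N siRNA minus control siRNA, n = 3 each) of the 21 tested ETS family genes with 95% intervals. Filled points have an adjusted p under 0.05, and ERG at -2.53 and ELK3 at -1.09 lie farthest to the left.

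At the isoform level, 20 of the 39 member isoforms could be tested and 9 had no reads in any library. Of the tested ones 2 passed as higher and 5 as lower, beside 9.39% and 10.1% of all 32627 tested isoforms. Nothing is read from these shares either, since this contrast chose the members. The 2 higher calls were NM_005239 of ETS2 and NM_001261438 of ETV4, and the number was 0 without control replicate 1 or 2 or without HOTAIR-N siRNA replicate 3, and 1 without control replicate 3 or HOTAIR-N siRNA replicate 2. The 5 lower calls were NM_001243428 of ERG, NM_001330451 of ETS1, NM_001163148 of ETV1, NM_004454 of ETV5 and NM_001197297 of GABPA. With the replicate number as a block, those of ETV1 and GABPA did not pass. Isoform values rest on how RSEM divides reads shared between transcripts, an error the tables do not state. The ERG reads were mostly assigned to NM_001243428, with 218, 288 and 228 counts with control siRNA and 37.4, 32.8 and 46.3 with HOTAIR-N siRNA. Its log2 fold change of -2.61 ± 0.21 (SE) was close to that of the gene. The ERG isoforms NM_004449 and NM_001291391 varied widely between libraries of a group, the former with 80.2, 30.4 and 91.3 counts against 0, 0.35 and 13.5. All 5 ETV4 isoforms had positive log2 fold changes, from 0.31 to 0.91, with NM_001261438 and NM_001986 making up 46.6% and 32.0% of the gene in the controls. ETV5 and ETV6 have 1 listed isoform each. In GABPA the isoform NM_001197297 made up 72.0 ± 4.53% of the gene with control siRNA and 69.7 ± 4.03% with HOTAIR-N siRNA, which overlap. The log2 fold change of NM_001197297 was -0.39 ± 0.09 (SE). Its call did not hold without control replicate 2 or 3 or without any single HOTAIR-N siRNA library.

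ETS1 and ETV1 each held a minor isoform that was lower in all 3 HOTAIR-N siRNA libraries. For ETS1, NM_001330451 had 363, 414 and 296 counts with control siRNA and 58.3, 84.0 and 79.7 with HOTAIR-N siRNA. It went from 5.61 ± 0.90% to 1.16 ± 0.22% of the gene, while the main isoform NM_005238 went from 93.9 ± 0.55% to 97.3 ± 0.57%. The log2 fold change of NM_001330451 was -2.22 ± 0.21 (SE), beside 0.05 ± 0.05 for the ETS1 gene. For ETV1, NM_001163148 had 130, 78.7 and 95.2 counts with control siRNA and was listed at 0 in all 3 HOTAIR-N siRNA libraries. In those libraries some ETV1 reads were assigned to NM_001163149 (0, 16.4 and 15.4 counts) and NM_001163150 (17.1, 0 and 8.26 counts), which had none with control siRNA, are too low to test and are named after their values were seen. The main ETV1 isoform NM_004956 went from 73.0 ± 2.68% to 83.1 ± 2.56% of the gene. In the test of isoform use within a gene, 1 of the 5 members with several tested isoforms passed, ETV1, beside 4.13% of 7523 genes. ETS1 passed it only without control replicate 3. That library held 70.6 counts of the ETS1 isoform NM_001143820, which was at 0 in the other controls. With HOTAIR-N siRNA this isoform had 96.2, 67.6 and 148 counts. Without control replicate 3 it passed as higher, with a log2 fold change of 9.70 (edgeR adjusted p = 0.0145). Which isoform carries that ETS1 call was not tested.

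**Figure D3:**
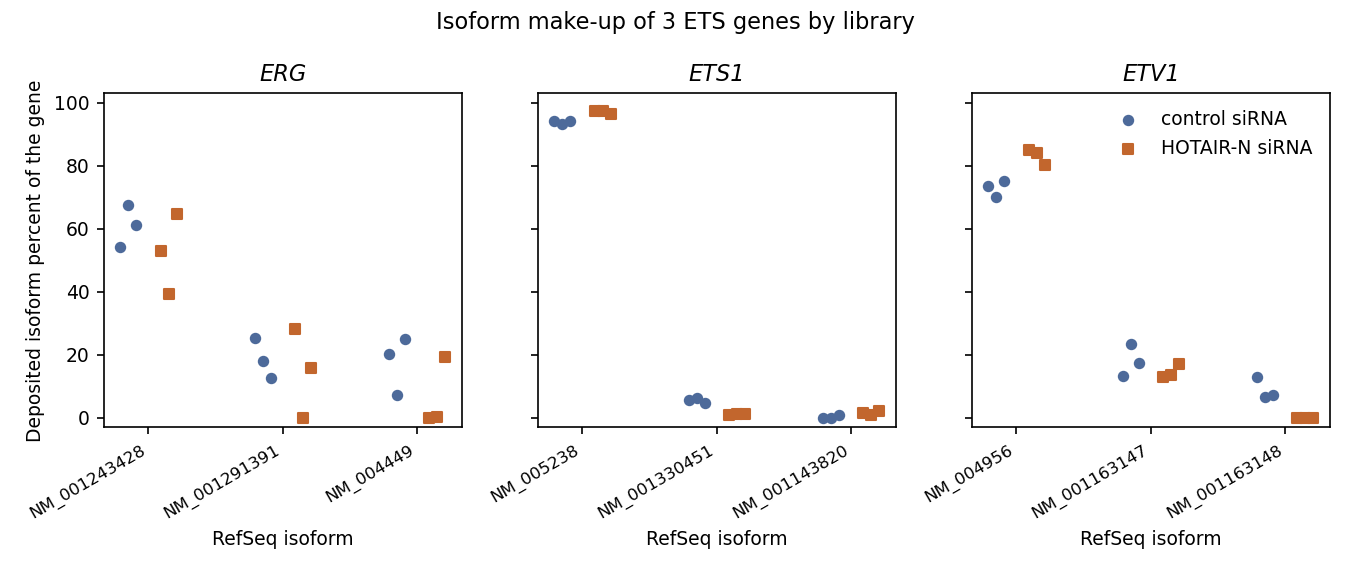
Deposited percent of the gene made up by each RefSeq isoform of ERG, ETS1 and ETV1 with a mean of at least 10 counts, by library. The ETS1 isoform NM_001330451 and the ETV1 isoform NM_001163148 are lower in all 3 HOTAIR-N siRNA libraries, while the ERG shares overlap.

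Partners and regulators of ETS proteins were counted from a list of 18 genes, all tested, of which 3 rose, 6 fell and 9 did not pass, with a median of -0.04. The shares over all tested genes, 28.7% higher and 28.8% lower, apply to this and the following lists. These lists were written with earlier results of these data known, so nothing is read from the shares. MKL2 and MKL1, the actin-regulated coactivators that compete with ELK proteins for SRF, were the 2 with the smallest p. In log2 units MKL2 fell by 0.75 and MKL1 by 0.46 (edgeR adjusted p = 1.16e-07 and 1.33e-04). SRF itself, with the GABPA partners GABPB1 and GABPB2, is named after the values were seen. SRF fell by 0.25, and the log2 fold changes of GABPB1 and GABPB2 were -0.36 and -0.48 (edgeR adjusted p = 0.00542, 8.42e-04 and 2.83e-04), beside -0.36 for GABPA. CIC, the repressor of the PEA3 genes that ERK relieves, also named after its values were seen, rose by 0.31 ± 0.08 (SE; edgeR adjusted p = 0.00355). Its partner ATXN1L and the ligase COP1 are likewise named after their values were seen. ATXN1L fell by 0.25 (edgeR adjusted p = 0.00102). COP1, which ubiquitinates PEA3 and ETS proteins, was at 0.15 ± 0.07 (SE) and did not pass. Besides CIC, the genes of this list that rose were DET1 and CREBBP, also named after their values were seen. Their log2 fold changes were 0.44 and 0.20 (edgeR adjusted p = 0.0039 and 0.0052).

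Of 16 tested genes known to answer to CIC or ERK, 9 rose, 3 fell and 4 did not pass, with a median of 0.23. Over all tested genes 28.7% rose and 28.8% fell, with a median of 0.0061. As for the other lists, nothing is read from these shares. VGF, a secreted neuropeptide precursor, had 212, 168 and 157 counts with control siRNA and 545, 717 and 720 with HOTAIR-N siRNA, a log2 fold change of 1.92 ± 0.12 (SE; edgeR adjusted p = 6.57e-09). SPRED2, an inhibitor of RAS signalling, fell by 0.84 (edgeR adjusted p = 6.44e-09). The phosphatase DUSP6 and the feedback inhibitor SPRY4, named after their values were seen, rose by 0.72 and 0.76 (edgeR adjusted p = 6.68e-08 and 1.49e-08). With SPRED2, the 3 that fell include FOSL1 and MAFF, likewise named after their values were seen. Their log2 fold changes were -0.40 and -0.28 (edgeR adjusted p = 0.0021 and 0.0083). Of the PEA3 genes, which CIC also represses, ETV4 was higher, and ETV1 and ETV5 were lower.

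**Figure D4:**
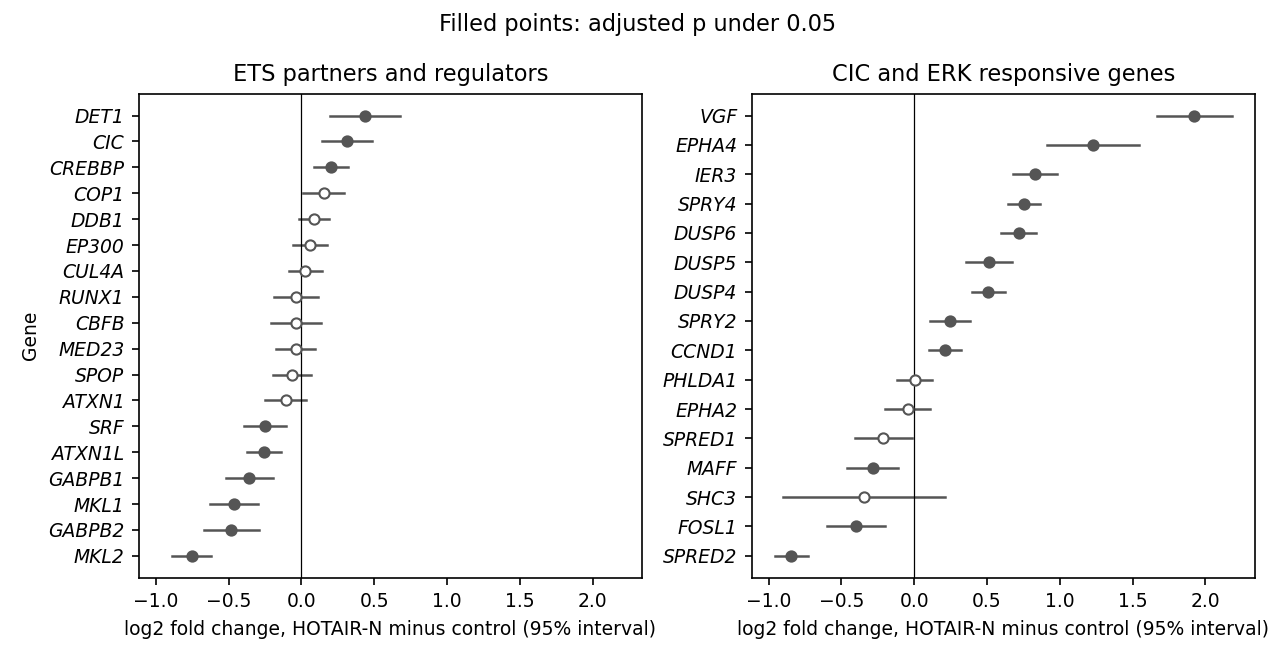
Log2 fold changes (HOTAIR-N siRNA minus control siRNA, n = 3 each) with 95% intervals for 18 partners and regulators of ETS proteins and for 16 genes responsive to CIC or ERK. Filled points have an adjusted p under 0.05, and the right panel holds 9 such points above 0 and 3 below.

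The remaining target lists moved in both directions. Of 12 immediate early genes of SRF and ELK proteins 4 rose, 2 fell and 6 did not pass, with a median of 0.07. The 2 with the smallest p were JUNB, an AP-1 subunit, and MCL1, a survival factor, which rose by 1.04 and 0.44 (edgeR adjusted p = 7.65e-08 and 4.45e-06). The 2 that fell, named after their values were seen, were EGR1 by 0.33 and SRF by 0.25 (edgeR adjusted p = 0.00102 and 0.00542). SRF is also counted among the partners above. Of 19 endothelial genes of ERG and FLI1 only 8 were high enough to test, of which 2 rose and 2 fell. GATA2 fell by 0.46 and EGFL7, a secreted vessel protein, rose by 0.64 (edgeR adjusted p = 4.39e-05 and 5.16e-05).

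Among 12 tested invasion genes with known ETS sites, 6 rose, 5 fell and 1 did not pass. MMP1, the interstitial collagenase, rose by 1.71 and TGFBR2, a TGF-beta receptor, fell by 1.04 (edgeR adjusted p = 4.85e-10 and 2.92e-09). The number that fell was 3 with upper-quartile scaling and without control replicate 1 or HOTAIR-N siRNA replicate 2 or 3. Among 11 tested epithelial genes linked to ELF3, 5 rose and 3 fell, led by the chemokines CCL20 and CXCL8, which rose by 1.62 and 1.48 (edgeR adjusted p = 5.61e-11 and 7.16e-10). ELF3 itself was near 0 in all libraries. Of 21 genes of GABP, most of them mitochondrial, 5 rose, 5 fell and 11 did not pass, with a median of 0.01. Without control replicate 1, 9 rose. COX7A2, a subunit of cytochrome c oxidase, fell by 1.06 and YAP1 by 0.67 (edgeR adjusted p = 1.43e-08 and 7.20e-07).

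The ETS motif CCGGAAG was searched on both strands in RefSeq promoter windows (GRCh38.p14, 250 bases before to 50 after each start site), where 12.2% of 27305 genes hold it. Of the members, 6 had a window and only GABPA held the motif, 66 bases before its start. Of the other family genes 2 of 16 held it, ELK4 and ETV3L. In the GABP list 9 of 18 genes with a window did, and 0 of 12, 0 of 12 and 0 of 8 in the CIC and ERK, endothelial and invasion lists. The partners, immediate early and ELF3 lists held it in 1 of 14, 1 of 9 and 2 of 14. The sites of GABPA and ELK4 are shown because they place an ETS motif in the promoter of an ETS gene, with the motif or its reverse complement in capitals. The GABPA site lies at chr21:25734895-25734924 on the plus strand and the ELK4 site at chr1:205632015-205632044 on the minus strand.

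GABPA: cctccgctctaCTTCCGGccctggctccgc
ELK4: cagcccctcccCCGGAAGtgacgtgtagcg

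Over all tested genes with a window, 615 of the 2364 with the motif rose (26.02%) and 706 fell (29.9%), against 2567 (28.8%) and 2709 (30.4%) of the 8904 without it. The medians were -0.014 and -0.0015, and genes with the motif were more abundant, at a median of 40.4 against 20.7 CPM in the controls. A match is a description of these letters and not a binding site.

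The 7-base words GACCAAT and ACCAATA, taken from an earlier scan of these libraries for words that go with the fold changes, were searched on the sense strand of the most abundant isoform of each gene (GENCODE 29, GRCh38). Of 16715 genes 20.1% held at least 1 of them anywhere in that transcript, either UTR included. Among the 10 members 5 did, and among 17 other family genes 4. ETS1, FLI1, ETV1 and GABPA held a word in the coding sequence and ETV6 held both in the 3' UTR. The other family genes with a word were ELF4, ELK3, ELK4 and SPDEF. Shown are 1 site of each of the 5 members, for ETV6 only that of GACCAAT, and the site of ELK3. ELK3 is shown only because it fell most of the other family genes, and the sites of ELF4, ELK4 and SPDEF are not shown. ELK4, with both words at several sites of its 3' UTR, had a log2 fold change of -0.30. ELF4 and SPDEF held a word in the coding sequence. ELF4 did not pass and SPDEF was too low to test. ERG, ETS2, ETV4, ETV5 and ELF3 held neither word. Capitals mark the words, which run together as GACCAATA in ELK3.

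ETS1: cacaggcagtgGACCAATccagctatggca
FLI1: cctcccacaccGACCAATcctcacgattga
ETV1: cttacatggtcACCAATAgtcagcgtggga
ETV6: gaggaataataGACCAATggattttctcct
GABPA: gacatcaatgaACCAATAggcaatttaaag
ELK3: atcaggtttgtGACCAATAaaaccgacaag

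These lie at chr11:128781982-128782011 for FLI1, chr12:11894511-11894540 for ETV6, chr21:25745259-25745288 for GABPA and chr12:96247279-96247308 for ELK3. The ETS1 and ETV1 sites span an exon junction, within chr11:128463603-128480195 and chr7:13988161-13989024. The words and the members were both chosen on fold changes of these libraries. The differences of the members and of the other family genes are therefore not read against whether they hold a word.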

How the data were processed

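Per the submitters' processing notes, STAR 2.6.0c, RSEM 1.3.0 and hg19 were used. Neither annotation release nor strandedness of the counting is given in the sources used here, so overlapping and antisense genes are uncertain. Per the file headers, the deposited tables give expected counts (estimated counts of reads per gene or isoform, with shared reads divided), TPM and FPKM that the authors scaled per library, and for isoforms the deposited percent of the gene. FPKM values were not used. Gene counts were not whole in 10.9% of cases and isoform counts in 42.2%.

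Rounded expected counts entered edgeR 4.0.16 (R 4.3.3; filterByExpr, TMM, robust quasi-likelihood test, siRNA as the only term) over all genes or isoforms. P-values were adjusted by the Benjamini-Hochberg method, and a value under 0.05 passed. Isoform use was tested with diffSpliceDGE and Simes p-values. On simulated data, 100 genes were changed 1.5-fold and 100 genes 2-fold. The gene test recovered 79% and 88% of them, with 7.73% of gene calls false. With 91 isoforms changed at each fold, the isoform test recovered 5.49% and 17.6%. In the libraries far more genes were called, 28.7% as higher and 28.8% as lower. The adjusted threshold depends on how many features change, so these rates do not carry over to the libraries. An isoform that did not pass may still differ. Alternatives were RLE, upper-quartile and no scaling, no filter and a stricter one (over 1 CPM in 3 libraries), DESeq2 1.42.0, limma-voom (limma 3.58.1), the replicate number as a block, and each library left out.

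The members and lists were chosen with earlier results of these data known. Named were all members, other family genes of at least 1 CPM in a group, the 2 genes of each list with the smallest p, the 3 profiles nearest to ERG, and member isoforms with a mean of at least 10 counts. Cell type markers, some of them also on a target list, and family genes under 1 CPM are named without a mark. Any other further list gene is marked as named after the fact.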

Additional observations from a re-analysis of the deposited data

How the results depend on the processing

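The counts of members that passed, 2 higher and 4 lower, were the same in all 14 alternatives, and all 9 tested members kept their side of the threshold (FLI1 in 13, since the stricter filter removed it). Both values of FLI1 changed sign. Its gene value ran from -0.029 (without control replicate 1) to 0.39 with a library left out, and the log2 fold change of NM_002017 of FLI1 from -0.82 to 0.25 (without HOTAIR-N siRNA replicate 3). The other family genes that rose were 0 with the stricter filter, 0 with DESeq2 and 0 to 1 with a library left out. The endothelial genes that rose were 1 with the stricter filter and 1 with DESeq2. The invasion genes that fell were 3 with upper-quartile scaling and 3 to 5 with a library left out, and the GABP genes that rose 4 to 9.

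Member isoforms were less stable. Those higher were 1 without a filter, 4 with limma-voom and 0 to 2 with a library left out, and those lower 4 to 6 with a library left out. Members passing for isoform use were 1 to 2 with a library left out, with ETS1 added without control replicate 3 (adjusted p = 3.26e-04).

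Same-numbered libraries did not deviate together (correlations of -0.12, 0.02 and -0.04). With 3 libraries per group, each centred on its group mean, this cannot settle whether the numbers pair the samples. With the replicate number as a block, 3988 genes were higher and 3996 lower, the member genes that passed were again 2 higher and 4 lower, and member isoforms passed as higher in 0 and as lower in 3 cases. Depth limits FLI1 and ELF3, which rest on at most 16 counts in a library.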
